A study of Mus musculus with 6 samples.

Results

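Translation initiation and elongation factors were read in germinal centre B cells, the antigen-activated B cells that divide, mutate and select their receptors in lymphoid follicles. The genes were taken by name, as every protein-coding gene whose symbol starts with Eif1 to Eif6 or with Eef1 or Eef2, leaving out the eIF2 kinases (Eif2ak genes) and the sex-linked pair Eif2s3x and Eif2s3y. This gave 65 of the 55421 genes listed, or of 21926 protein-coding genes. The rule used no measured value, though it was set with earlier results of these data known. The cells came from C57BL/6 mice carrying an AID-GFP reporter, immunized with NP(18)OVA in alum, with spleens taken on day 9. GFP-positive cells were sorted and their total RNA was sequenced from 3 SFR KO and 3 wildtype samples, so both groups share the strain, the reporter, the antigen and the sort. SFR KO mice carry 1 deletion that begins in Cd244 (intron 1) and ends in Slamf6 (exon 8) and takes in Cd244, Ly9, Slamf7, Cd48, Slamf1, Cd84 and Slamf6, genes of the SLAM family of cell surface receptors. No single receptor can therefore be set apart from the others in this comparison. The question the design names is how the RNA profile of SFR KO germinal centre B cells differs from that of wildtype ones. Samples are numbered 1 to 3 within a group only to name them. The labels identify the samples singly but do not say that each came from a separate mouse, so a p-value here reflects only how far these samples spread.

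Initiation factors bring the initiator tRNA, the small ribosomal subunit and a capped mRNA together and find the start codon, after which elongation factors deliver the following tRNAs and move the ribosome along. Initiation is held back at 2 well-known points: phosphorylated eIF2 blocks its own exchange factor eIF2B, and the 4E-binding proteins keep the cap-binding protein eIF4E from the scaffold eIF4G until the kinase mTOR phosphorylates them. In B cells, antigen and T cell help raise mTOR activity, growth and protein synthesis before division. Many mRNAs of the translation machinery begin at the cap with a run of pyrimidines, a 5' terminal oligopyrimidine tract, through which mTOR controls their translation, and the E-box CACGTG is the binding sequence of MYC and related factors.

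Promoter windows from RefSeq (GRCm38.p6), reaching from 250 bases before to 50 bases after a transcript start, were found for 48 of the 65 genes. Among these, 14 held CACGTG, a palindrome that reads the same on both strands, which is 29.2% of them against 8.09% of the 27025 genes with a window and 11.8% of the 9640 such genes that were tested. An unbroken run of at least 8 pyrimidines, read in the direction of the gene, touching the stretch from 10 bases before the start to 30 bases after it, was found in 15 of 48, or 31.2%, against 22.2% of all genes with a window. A match describes these letters alone and is no evidence of a bound site. The 60 bases around the RefSeq start (30 on each side) follow for 3 genes that the results below return to, all on the plus strand. They are Eef2 at chr10:81176601-81176660, Eif3f at chr7:108934385-108934444 and Eif4g1 at chr16:20672697-20672756. Capitals mark the pyrimidine run in Eef2 and Eif3f, and CACGTG in Eif4g1. Relative to the RefSeq start, the run begins at position 15 in Eef2 and at position -4 in Eif3f, so neither begins exactly at that start. The RefSeq start used for Eif4g1, at 20672727, lies inside the gene, whose annotated start is at 20668313.
Eef2: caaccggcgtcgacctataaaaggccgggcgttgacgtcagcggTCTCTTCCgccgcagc
Eif3f: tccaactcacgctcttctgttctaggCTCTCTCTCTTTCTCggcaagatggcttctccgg
Eif4g1: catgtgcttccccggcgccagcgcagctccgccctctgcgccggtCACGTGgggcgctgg

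The libraries held 28269310 to 33053024 reads assigned to genes. Summed over the 7 deleted genes, SFR KO libraries 1 to 3 had 16.8, 5.5 and 15.9 normalized reads, against 20668.9, 11327 and 10456.7 in wildtype libraries 1 to 3, and all 7 passed the test as lower. Of 10 germinal centre B cell markers, 0 passed the test, and their sum ran from 368466.2 to 378131.8 normalized reads in SFR KO libraries and from 372341.1 to 383709.9 in wildtype libraries. Markers of other cells were present too. The sum of 10 T cell markers ran from 4820.3 to 6919.4 in SFR KO and from 4372.6 to 4767 in wildtype libraries. Most of each sum was Lck, with 3919.7 to 6155.1 normalized reads in SFR KO and 3797.1 to 3926.7 in wildtype libraries. Of the 10 markers, 8 lay above and 2 below 0 in log2 difference. Limma and edgeR called 0 of them and DESeq2 called 1, against 3.62% of all genes with DESeq2. The sum of 8 macrophage markers ran from 944.8 to 2714.6 in SFR KO and from 969 to 2088.5 in wildtype libraries, and that of 7 plasma cell markers from 34246.4 to 35142.6 in SFR KO and from 31330.9 to 32000.4 in wildtype libraries. The plasma cell sums did not overlap between groups, and most of each sum was Jchain. Jchain had 24789.1 to 26630.1 normalized reads in SFR KO and 22214 to 23175.1 in wildtype libraries. The list as a whole had no common direction, with 3 of its 6 tested genes above 0 and 3 below. Sdc1 was among those below, with 27.4 to 29.6 in SFR KO and 35.9 to 47.7 in wildtype libraries. Neutrophil markers summed to 397.4 to 2105.7 normalized reads in SFR KO libraries and to 946.6 to 6961.5 in wildtype libraries, with wildtype 1 highest, and Elane and Mpo were at 0 in some libraries. Red cell markers summed to 1560.1 to 4225.2 in SFR KO and to 1435.2 to 7885.9 in wildtype libraries, again with wildtype 1 highest. Transcripts of the mitochondrial genome summed to 757380 to 761311.3 normalized reads in SFR KO libraries and to 463562.1 to 660938.9 in wildtype libraries, and 2 of 10 tested passed as higher in SFR KO. The part of these transcripts in the differences below was not tested. In such bulk samples fewer cells of a type and less RNA per cell cannot be told apart.

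No translation factor gene passed the test between SFR KO and wildtype cells, and most differences were small. Of the 65 genes, 59 averaged at least 10 normalized reads over the 6 libraries and were tested; Eif4a3l1, Eif4a3l2, Eif4e1b, Eif4ebp3, Eef1a2 and Eef1akmt3 did not. The test was limma on log2(normalized count + 1), with p-values adjusted by Benjamini-Hochberg over all 13562 tested genes and called under 0.05; 63 of all genes, 0.465%, were called. Of the 59, 0 were called higher (0.155% of all genes) and 0 lower (0.31% of all genes), and 8 had an unadjusted p under 0.05 (3 higher and 5 lower in SFR KO cells), or 13.6%, against 16.1% of all tested genes. On the recovered whole reads, edgeR and DESeq2 each called 0 of the 59, against 0.221% and 3.62% of all genes. Each gave 8 with an unadjusted p under 0.05, against 15.9% of all genes with edgeR and 13.7% with DESeq2. Eif4g1 had the smallest adjusted p in all of these fits, at 0.193 with limma, 0.214 with edgeR and 0.0723 with DESeq2. In the authors' deposited table, 0 of 58 of these genes with an adjusted p were under 0.05, and the smallest was 0.0753, also of Eif4g1.

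Most of the differences had narrow intervals, which cover only the spread between these samples and not the trend with GC content given below. The log2 difference (SFR KO minus wildtype) had a median of -0.016 over the 59 genes and of -0.003 over all tested genes. Its median size was 0.048, against 0.12 over all genes, and among genes averaging at least 1000 normalized reads it was 0.042 over 47 translation factor genes and 0.079 over 5536 genes. Among those 5536 genes, 22.4% had an unadjusted p under 0.05 and 28.0% had groups that did not overlap. For 48 of the 59 the whole 95% interval lay within 0.3 of 0, that is, within a 1.23-fold difference either way; these intervals are not adjusted for the number of genes. The estimates reached from -0.73 for Eef2k to 0.20 for Eef2kmt. SFR KO and wildtype libraries were fully separated for 10 genes, or 16.9%, against 21.7% of all tested genes. Of these, 3 were higher in SFR KO libraries (Eif1, Eif1ax and Eif4a2; background 9.78%) and 7 were lower (Eif2b2, Eif3a, Eif3b, Eif3c, Eif4ebp2, Eif4e2 and Eif4g1; background 11.9%). Summed over the 65 genes, the share of reads was 2.95%, 2.84% and 2.82% in SFR KO libraries 1 to 3, against 2.94%, 2.83% and 2.90% in wildtype libraries 1 to 3, and the groups overlapped.

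**Figure D1:**
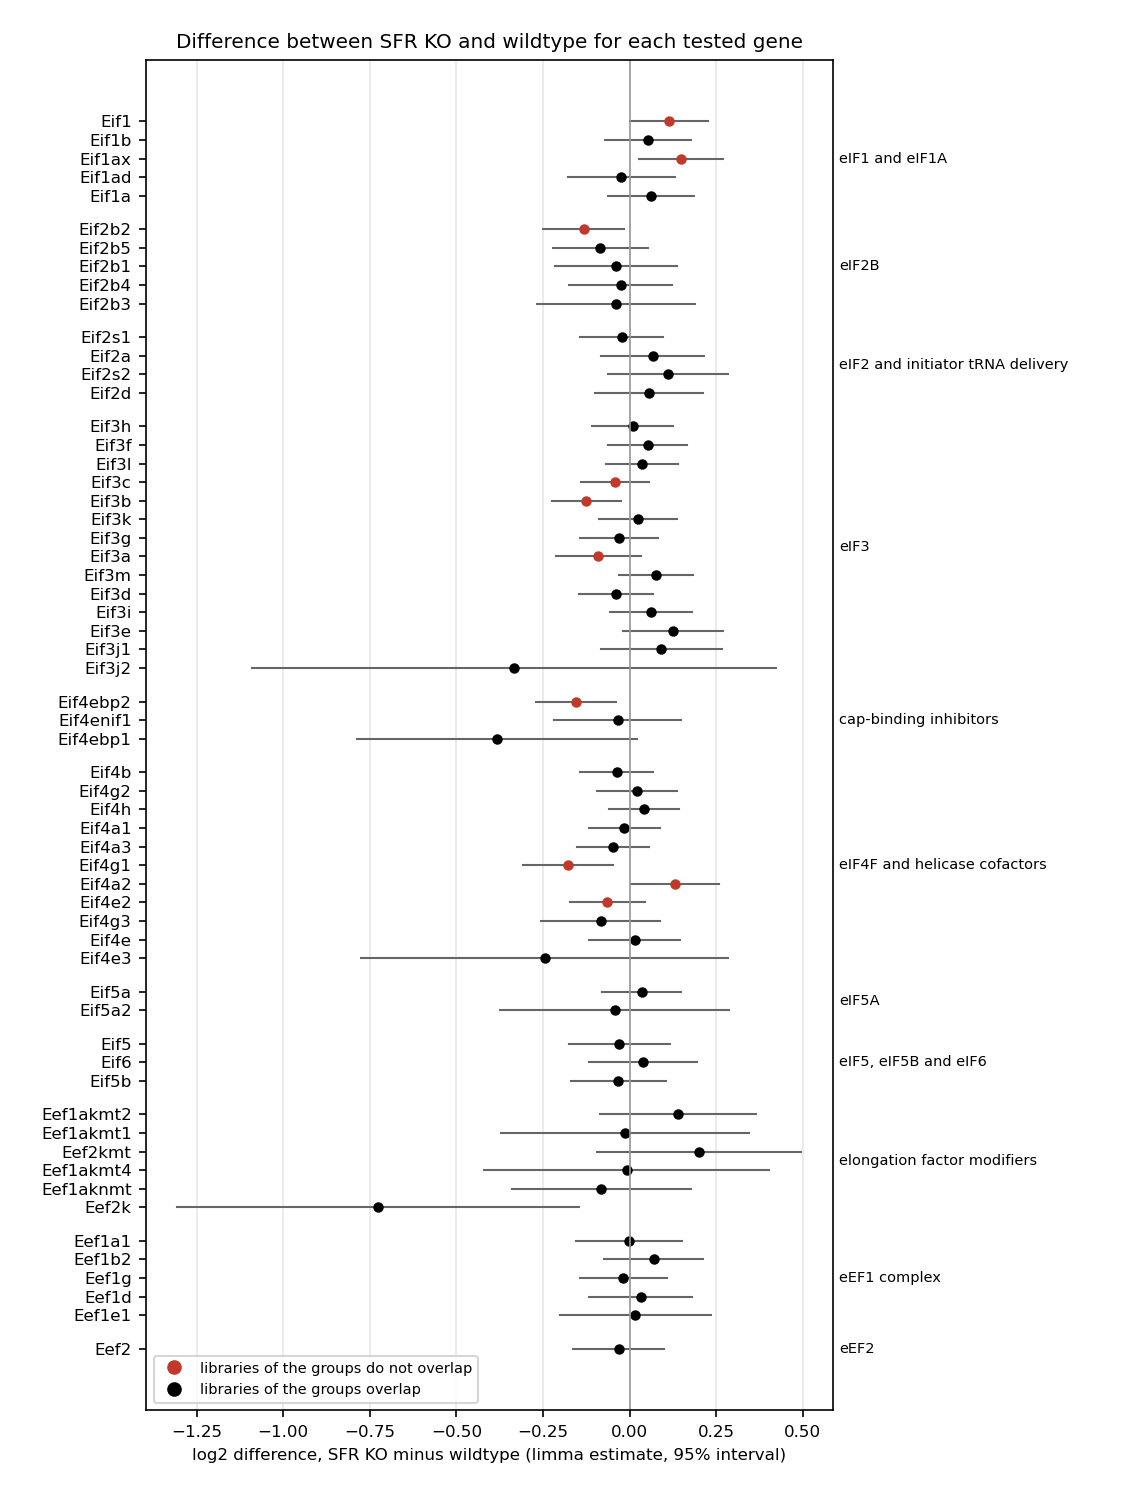
Log2 difference (SFR KO minus wildtype) of each tested gene, with its limma estimate as a point and its unadjusted 95% interval as a line; genes run down the page by role, and red points mark the 10 genes whose libraries do not overlap between groups. Most points lie close to 0, Eef2k, Eif4ebp1, Eif3j2 and Eif4e3 lie lowest, with wide intervals for these low genes, and Eef2kmt lies highest.

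Most of the factors were abundant for these cells, and a few were not. Per kilobase of the longest annotated transcript, which may not be the one expressed, the tested factors had a median of 1928.9 normalized reads, against 204.7 over all genes, and 51 of the 59 lay above that. The other 8, among them Eef2k, Eif3j2 and Eif4e3, lay below it. Elongation factor Eef1a1 stood at rank 5 of 13539 genes with 151288.6 normalized reads per kilobase, and Eef2 at rank 15 with 53609.7. Eif5a (19242.8, rank 82), Eef1b2 (11512.1, rank 132) and Eif3h (11447.1, rank 134) came next. Eef1a1 took 30.5% and Eef2 18.6% of all reads of the 65 genes. The 14 factors with CACGTG in the window and a test had a median level of 3266.6 per kilobase, and the 32 without it 1437.6. Their median log2 differences between genotypes were -0.012 and -0.025. Factors with and without the pyrimidine run had median levels of 2294.1 and 1751.2 per kilobase and median log2 differences of -0.005 and -0.025.

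**Figure D2:**
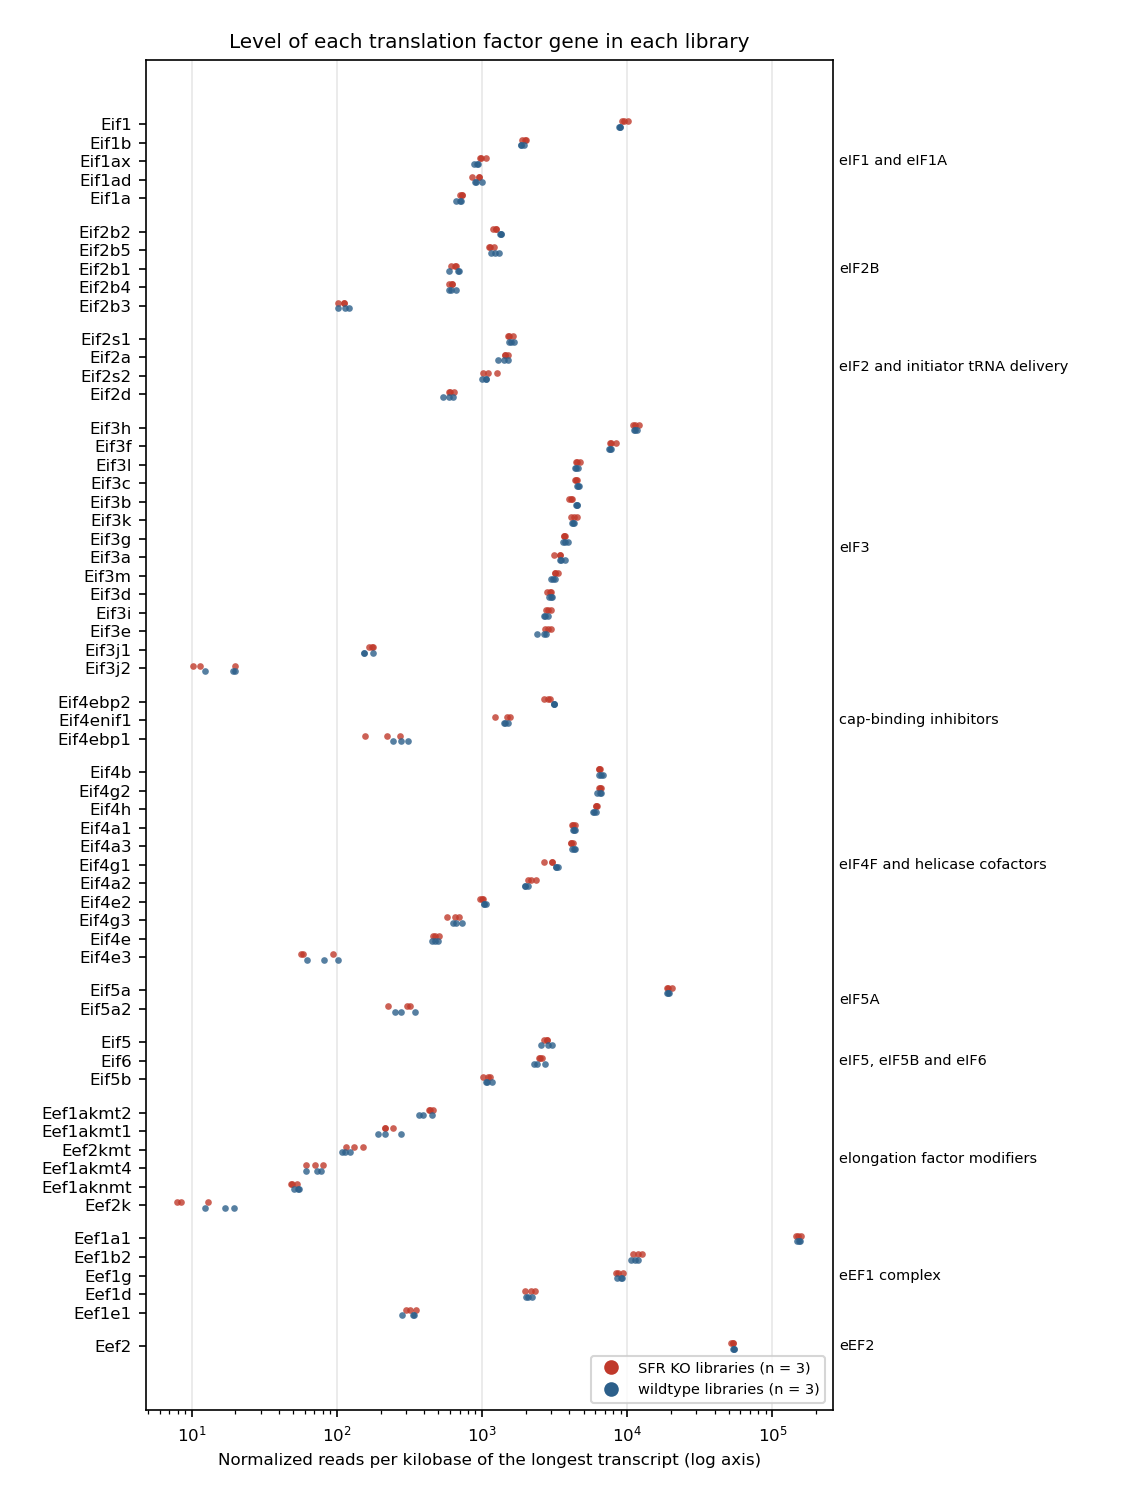
Level of each tested gene in each library, in normalized reads per kilobase of the longest transcript on a log axis, grouped by role; each point is 1 library, red for SFR KO and blue for wildtype. The lowest level is that of Eef2k and the highest that of Eef1a1, with a mean of 151288.6 over the 6 libraries, and the groups lie on top of each other for most genes.

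The delivery of the first tRNA and the choice of the start codon rest on eIF1, eIF1A and eIF2. Eif1 (chr11:100319885-100322096), whose product guards against wrong start codons, had 13461.9, 12250.8 and 12464.8 normalized reads in SFR KO libraries, against 11758.3, 11668.6 and 11831 in wildtype libraries. All SFR KO libraries were above all wildtype ones, and the log2 difference was 0.11 ± 0.05 (SE) with a 95% interval from 0.00 to 0.23 and a limma adjusted p of 0.307. Eif1ax (chrX:159372178-159389928), a gene for eIF1A, the partner of eIF1 on the small subunit, had 5509.1, 5119.3 and 5025.6 in SFR KO against 4822.8, 4768.6 and 4534.1 in wildtype libraries. Its groups did not overlap either, and SFR KO libraries were higher by 0.15 ± 0.05 on the log2 scale (limma adjusted p = 0.228). The related Eif1a and Eif1b differed by 0.06 ± 0.06 and 0.05 ± 0.06, with overlapping groups. Eif1ad, whose product resembles eIF1A, differed by -0.02 ± 0.07.

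Among the 4 genes for eIF2 subunits and other carriers of the initiator tRNA, 3 lay above 0 and 0 reached an unadjusted p under 0.05. Eif2s1, the eIF2 alpha subunit that stress kinases phosphorylate, averaged 5314.3 ± 208.3 normalized reads in SFR KO and 5401.3 ± 241.6 in wildtype libraries (SD, n = 3 each), and the interval of its log2 difference ran from -0.14 to 0.10. Eif2s2, the beta subunit, was 0.11 ± 0.08 higher on the log2 scale (limma adjusted p = 0.52). All 5 subunits of eIF2B, the exchange factor that recharges eIF2 with GTP, had estimates below 0, between -0.13 and -0.03, but with the GC trend removed Eif2b4 was at 0.04 and the other 4 remained below 0. Only Eif2b2 (chr12:85219481-85226628), its beta subunit, had groups that did not overlap: 2000.3, 1996.9 and 1894.7 normalized reads in SFR KO against 2157.3, 2170.4 and 2129.9 in wildtype libraries. Its log2 difference was -0.13 ± 0.05 with a limma adjusted p of 0.256, and the other 4 eIF2B genes had overlapping groups. Eif2b5, the catalytic epsilon subunit, differed by -0.08 ± 0.06 (adjusted p = 0.547 with limma).

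The eIF3 complex, which binds the small subunit and bridges it to eIF4G, had 14 tested genes, 8 above and 6 below 0. Their level sum per kilobase was 57405.4, 55172.9 and 54934.5 in SFR KO libraries 1 to 3, against 55554.3, 55538.6 and 55835.4 in wildtype libraries 1 to 3; the wildtype sums lay inside the span of the SFR KO ones. Leaving out the loosely bound subunit eIF3j, the other 12 subunit genes lay within a 4.2-fold range of level, from 2723.6 per kilobase for Eif3e to 11447.1 for Eif3h. Eif3j1 stood at 167 and its near copy Eif3j2 at 15.5, and reads of this pair may be split between them.

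Eif3b (chr5:140419328-140443360), a core scaffold subunit, had 11736.5, 12163.2 and 12338.3 normalized reads in SFR KO libraries against 13021.8, 13241 and 13246.9 in wildtype libraries. Every SFR KO library was below every wildtype one, at -0.12 ± 0.04 on the log2 scale and a limma adjusted p of 0.22. Eif3a, the other large scaffold subunit, had 16157.8, 17555.1 and 17644 in SFR KO against 17962.6, 19036.3 and 17648.9 in wildtype libraries. The highest SFR KO library and the lowest wildtype one nearly met, and its log2 difference was -0.09 ± 0.05 (limma adjusted p = 0.461). Eif3e lay in the other direction, with 12233.1, 11755.9 and 11139.5 in SFR KO against 11399.6, 11006 and 9842.2 in wildtype libraries. Its groups overlapped, and its log2 difference was 0.13 ± 0.06 (limma adjusted p = 0.385). Without wildtype 3 it was 0.06. Another subunit gene, Eif3m, differed by 0.08 ± 0.05. Eif3h, the most abundant subunit mRNA, averaged 14874.7 ± 745.8 in SFR KO and 14773.2 ± 378.2 in wildtype libraries, and the interval of its difference was -0.11 to 0.13. Eif3f, whose start region is shown above, differed by 0.05 ± 0.05.

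Cap recognition and unwinding held the gene with the smallest p. Eif4g1 (chr16:20668313-20692884), the scaffold that links the cap-binding protein to the helicase and to eIF3, had 15093.6, 16959.5 and 16978.1 normalized reads in SFR KO libraries, against 18339.8, 18936.8 and 18082.6 in wildtype libraries. All SFR KO libraries were below all wildtype ones, with SFR KO 1 lowest. The level in SFR KO was 0.885 times that in wildtype, a log2 difference of -0.18 ± 0.06 with a 95% interval from -0.31 to -0.05 and a limma adjusted p of 0.193. Its relatives Eif4g2 and Eif4g3 differed by 0.02 ± 0.05 and -0.08 ± 0.08, with overlapping groups. Eif4a2 (chr16:23107444-23114136), a gene for the eIF4A helicase, had 5911.1, 6358.6 and 5608.2 in SFR KO against 5606.9, 5358.4 and 5342.6 in wildtype libraries. SFR KO 3 and wildtype 1 nearly met, and the log2 difference was 0.13 ± 0.06 (limma adjusted p = 0.298). Eif4a1, the more abundant helicase mRNA, averaged 13453.8 ± 400.8 in SFR KO and 13597.9 ± 167.6 in wildtype libraries, with a log2 interval from -0.12 to 0.09.

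Eif4e, the cap-binding protein itself, averaged 2388.8 ± 102.8 in SFR KO and 2365.8 ± 106.2 in wildtype libraries, and its log2 interval ran from -0.12 to 0.15. The helicase cofactor Eif4b, the most abundant per kilobase of this group, differed by -0.04 ± 0.05. Eif4e2, a cap-binding relative tied to repression, had non-overlapping groups that differed by -0.07 ± 0.05 on the log2 scale (limma adjusted p = 0.557). The germ cell gene Eif4e1b had no read, and Eif4a3l1 and Eif4a3l2, near copies of Eif4a3, fell below the minimum.

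The 3 tested genes for inhibitors of the cap-binding protein eIF4E all had estimates below 0, though Eif4enif1 was at 0.0059 with GC and length trends removed. Eif4ebp2 (chr10:61428491-61452661), by level the main 4E-binding protein gene here, had 15391.2, 16555.5 and 17074.6 normalized reads in SFR KO libraries, against 18236.6, 18198.3 and 18117.2 in wildtype libraries. The wildtype libraries lay close together and all above the SFR KO ones, with -0.16 ± 0.05 on the log2 scale, a 95% interval from -0.27 to -0.04 and a limma adjusted p of 0.196. Eif4ebp1 (chr8:27260329-27276674) was far lower in level and more variable, with 539, 442.3 and 313.8 in SFR KO against 550.9, 615.4 and 489.6 in wildtype libraries. SFR KO 1 fell among the wildtype libraries, and the log2 difference was -0.38 ± 0.18, with an interval from -0.79 to 0.02 and a limma adjusted p of 0.341. Single libraries moved this estimate, to -0.17 without SFR KO 3 and to -0.56 without SFR KO 1. Eif4enif1, a transporter of eIF4E, differed by -0.03 ± 0.08. Eif4ebp3 had 4.9, 0 and 3.7 normalized reads in SFR KO libraries against 2.8, 12.3 and 0 in wildtype libraries and was not tested.

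The factors of subunit joining and eIF5A had 0 calls, and the groups of each gene overlapped. Eif5, which makes eIF2 hydrolyse its GTP in start codon selection, averaged 11132.5 ± 351.1 in SFR KO and 11386.2 ± 963.5 in wildtype libraries. Its log2 interval ran from -0.18 to 0.12. Eif5b, which joins the large subunit, and Eif6, which keeps the large subunit apart, differed by -0.03 ± 0.06 and 0.04 ± 0.07. Eif5a, the hypusine-bearing factor that helps ribosomes through difficult stretches, had 29415.7, 27438.9 and 27112.7 in SFR KO against 27321, 26958.9 and 27663.8 in wildtype libraries, with overlapping groups and a log2 interval from -0.08 to 0.15. Eif5a2, its less abundant relative, differed by -0.04 ± 0.15.

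The elongation factors carried most of the reads and differed little. Eef1a1 (chr9:78478449-78489151), which brings aminoacyl-tRNAs to the ribosome, had 283865.9, 267709.8 and 261916.8 normalized reads in SFR KO libraries against 276826.3, 263403.4 and 274747.9 in wildtype libraries. SFR KO libraries were both the highest and the lowest of the 6. The log2 difference was -0.00 ± 0.07 with an interval from -0.16 to 0.15. Eef2 (chr10:81176631-81182498), the translocase, had 166169.6, 160701 and 164407 in SFR KO against 168685.8, 164520.1 and 169119.4 in wildtype libraries. These groups overlapped, at -0.03 ± 0.06 on the log2 scale and an interval from -0.16 to 0.10. The exchange subunits of eEF1, Eef1b2, Eef1d and Eef1g, and the associated Eef1e1 lay between -0.02 and 0.07. Eef1a2, the form of muscle and neurons, had a single library above 0, with 1.9 normalized reads in SFR KO 3.

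Eef2k (chr7:120842831-120907450), the kinase that inhibits eEF2 by phosphorylation, had the largest estimate of the tested genes. It had 85.7, 55.8 and 52.4 normalized reads in SFR KO libraries, against 129.1, 81 and 110.7 in wildtype libraries. SFR KO 1 lay above wildtype 2, so the groups overlapped. The level in SFR KO was 0.605 times that in wildtype, a log2 difference of -0.73 ± 0.26 with a 95% interval from -1.31 to -0.15 and a limma adjusted p of 0.22. At these few reads per library, the interval spans from 0.405 to 0.903 times the wildtype level. Leaving out SFR KO 1 gave -0.94 and a limma adjusted p of 0.0705, the lowest for any of these genes when a library was left out. Without SFR KO 2, SFR KO 3, wildtype 1 or wildtype 3 the estimate lay between -0.69 and -0.58, with an unadjusted limma p of 0.0581 to 0.0772 and an adjusted one of 0.408 to 0.471. The methyltransferase genes that modify eEF1A and eEF2 had 0 calls, and the most abundant of them per kilobase, Eef1akmt2, differed by 0.14 ± 0.10.

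**Figure D3:**
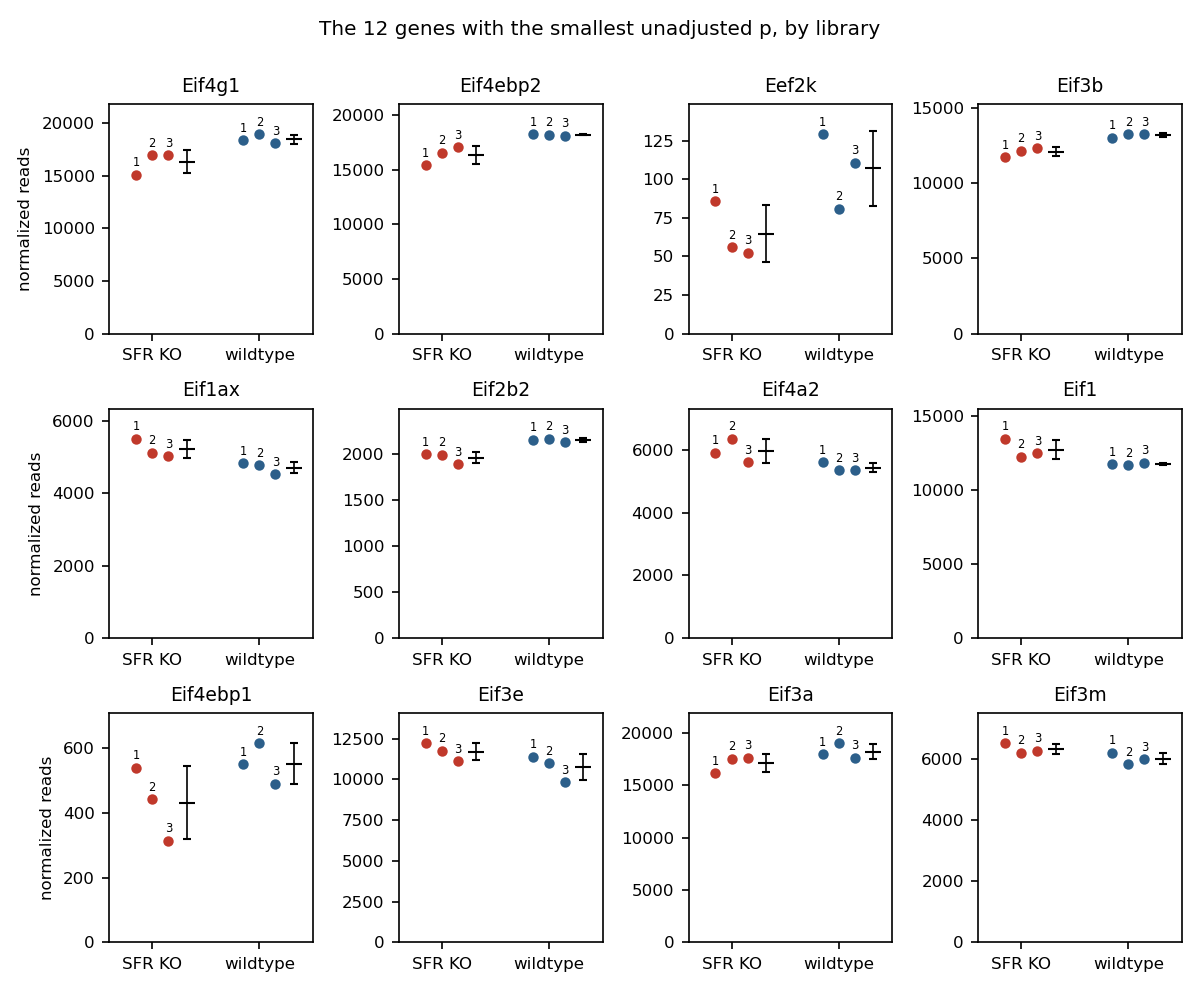
Normalized reads by library for the 12 genes with the smallest unadjusted p, each panel starting at 0; points are libraries numbered within the group, and the black mark and bar give mean ± SD (n = 3). Eef2k and Eif4ebp1 are low and spread widely within groups, while the other genes differ by a small share of their level.

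Libraries of 1 group differed from each other in a way many of these genes shared. SFR KO 1 was the highest of its group for 39 of the 59 genes and SFR KO 3 the lowest for 33. Against the mean of the other libraries of its group, the median log2 deviation over the 59 genes was 0.069, -0.008 and -0.057 in SFR KO 1, 2 and 3, and 0.001, -0.015 and 0.013 in wildtype 1, 2 and 3. Eif4g1 and Eif4ebp2 went the other way, with SFR KO 1 the lowest library of the group. The median size of the deviation was 0.098, 0.043 and 0.074 in SFR KO 1, 2 and 3. In wildtype 1, 2 and 3 it was 0.053, 0.065 and 0.062. Over all tested genes it ran from 0.101 in SFR KO 2 to 0.152 in SFR KO 1. Such a deviation sets 1 library against 2, so its size cannot be put beside that of the difference between genotypes. The part of this deviation in the differences between genotypes was not tested.

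**Figure D4:**
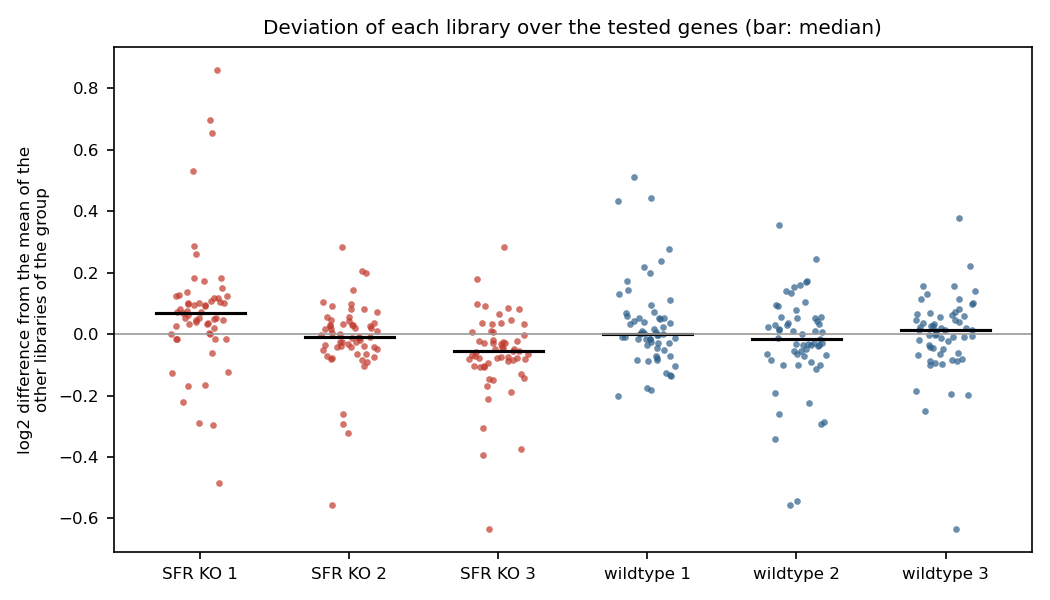
Log2 difference of each library from the mean of the other libraries of its group, with 1 point for each of the 59 tested genes and the median as a black bar. The median lies at 0.069 in SFR KO 1 and at -0.057 in SFR KO 3, and between -0.015 and 0.013 in the other libraries.

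Differences between genotypes went with the base composition of the transcripts. Across the 59 genes, Spearman's rho between the log2 difference and the GC content of the longest transcript was -0.291, and across all 13539 genes with a GC content it was -0.272; these correlations are across genes, which share the 6 libraries and are not independent. Of the 18 factors under 45% GC, 12 lay above 0 with a median of 0.041 (0.068 over all genes of that range). Of the 28 at 50% GC or more, 9 lay above 0 with a median of -0.028 (-0.051 over all genes). After each library's trend with GC content was removed, 0 of the 59 were called, against 0.147% of all genes. An unadjusted limma p under 0.05 was then left for 5 of the 59, against 13.9% of all tested genes. Of these 5, 3 were among the 8 above, and the smallest limma adjusted p of the 59 was 0.285. Eif1ax moved to 0.04, Eif4a2 to 0.03, Eif3b to -0.06 and Eif2b2 to -0.07. Eif4g1 moved to -0.13, Eif4ebp2 to -0.12 and Eef2k to -0.71, while Eif1 moved to 0.13. With the trend in transcript length removed as well, Eif4g1 was at -0.08 (limma adjusted p = 0.525) and Eif4ebp2 at -0.07 (limma adjusted p = 0.474), and neither kept an unadjusted p under 0.05. Eif2s1, at -0.02 as deposited, moved to -0.11 with the GC trend removed and was 1 of the 5 (limma adjusted p = 0.349). Eif3e moved to -0.08, on the other side of 0. Over the 59 genes, rho after the removal was 0.351 and so of the opposite sign.

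**Figure D5:**
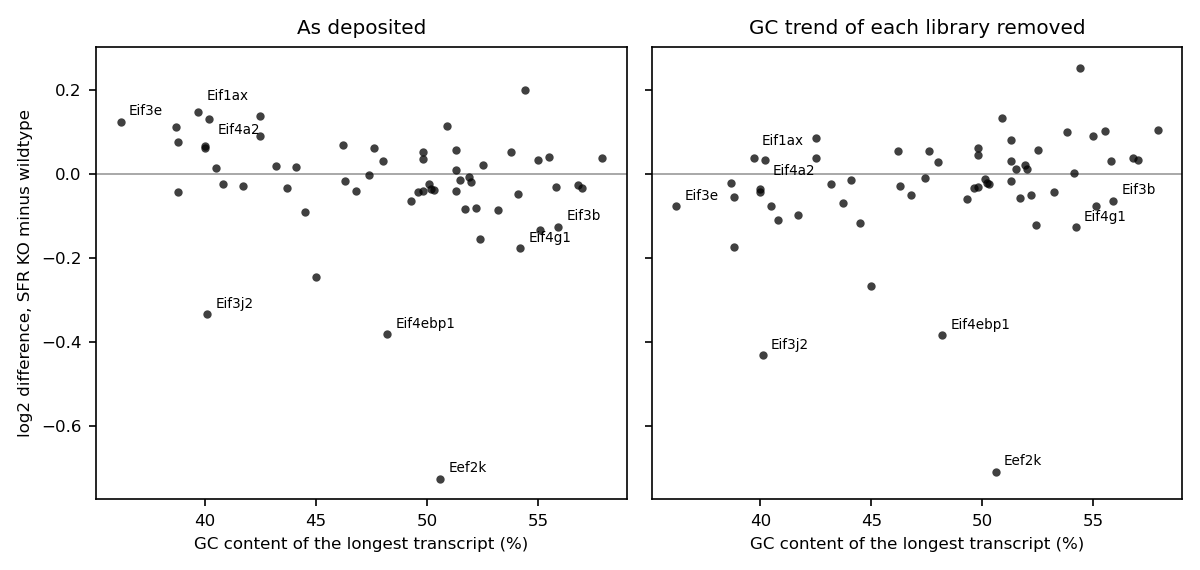
Log2 difference (SFR KO minus wildtype) against the GC content of the longest transcript for the 59 tested genes, as deposited on the left and after removal of each library's GC trend on the right. On the left the genes with less GC lie higher (rho -0.291), and on the right the order is turned round (rho 0.351).

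Other genes of translation and its control are given as lists by role, chosen for their roles. Of 19 tested further translation factors (release, poly(A)-binding, helicase, recycling and hypusination factors), 0 were called by limma, edgeR or DESeq2. With limma, 1 had an unadjusted p under 0.05, against 16.1% of all genes, and the median log2 difference was 0.011. The groups did not overlap for 3 higher and 4 lower genes of the 19, against 9.78% and 11.9% of all genes. Dhx29, a helicase that helps the small subunit through structured leaders, averaged 1327.5 ± 80.6 normalized reads in SFR KO and 1515.8 ± 66.9 in wildtype libraries (log2 difference -0.19 ± 0.07, limma adjusted p = 0.22). Denr, a factor of reinitiation, averaged 2338.7 ± 169.6 in SFR KO and 2072.3 ± 201.7 in wildtype libraries, with overlapping groups (0.18 ± 0.08, limma adjusted p = 0.331).

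The list for stress signalling to eIF2 (its kinases, phosphatase subunits and target genes) had 15 tested genes and 0 calls by limma, edgeR or DESeq2. With limma, 5 had an unadjusted p under 0.05 (16.1% of all genes), and the median log2 difference was -0.046. The groups did not overlap for 1 higher and 4 lower genes of the 15, against 9.78% and 11.9% of all genes. Atf5, a transcription factor translated under stress, had 552.8, 659.1 and 650.9 normalized reads in SFR KO against 702.4, 818.5 and 852.2 in wildtype libraries. Gcn1, the ribosome-bound activator of the kinase GCN2, averaged 4984.8 ± 279 in SFR KO and 5671 ± 180.6 in wildtype libraries. Neither pair of groups overlapped, at log2 differences of -0.35 ± 0.10 and -0.19 ± 0.06 (limma adjusted p = 0.155 for both). Gcn1 moved to -0.12 with the GC trend removed and to -0.06 with GC and length trends removed. Atf4, the main transcription factor of this response, lay in the other direction at 0.15 ± 0.05, and the kinase gene Eif2ak3 at -0.16 ± 0.05 (limma adjusted p = 0.22 and 0.208).

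The mTOR and MNK list, which holds kinases and regulators that act on the 4E-binding proteins, eIF4E and S6, had 20 tested genes, 0 calls by limma, edgeR or DESeq2, and 9 with an unadjusted p under 0.05, against 16.1% of all genes. The groups did not overlap for 9 lower and 2 higher genes of the 20, against 11.9% and 9.78% of all genes. The median log2 difference was -0.099, and -0.095 after removal of the GC trend. After that removal 2 genes of the 20 had an unadjusted limma p under 0.05, against 13.9% of all genes. The median GC content of the list was 53.2%. Mknk1, a kinase that phosphorylates eIF4E, had 534.1, 538.6 and 518.9 normalized reads in SFR KO against 642.9, 690.3 and 653.1 in wildtype libraries. All SFR KO libraries lay below all wildtype ones, at -0.32 ± 0.08 on the log2 scale and a limma adjusted p of 0.103. Mknk2, its more abundant relative, had 22184.2, 20872.3 and 20248.6 in SFR KO against 23349.3, 23623.3 and 23396.8 in wildtype libraries (-0.15 ± 0.05, limma adjusted p = 0.193). With sample weights, which gave SFR KO 1 a weight of 0.422, both passed the threshold with limma adjusted p = 0.0394 for Mknk1 and 0.0483 for Mknk2. Without SFR KO 1, Mknk2 passed at a limma adjusted p of 0.0452 and Mknk1 did not, at 0.0728. Calls rose over the whole table in these fits. Of all 13562 tested genes, 630 passed with sample weights and 480 without SFR KO 1, against 63 in the main fit. With the GC trend removed Mknk2 was at -0.09 (limma adjusted p = 0.518), and with GC and length trends removed at -0.06, while Mknk1 was at -0.28 in both. The mTOR complex genes Mtor, Rptor and Mlst8 had estimates of -0.16 ± 0.06, -0.19 ± 0.08 and -0.18 ± 0.07, and Rictor, the scaffold of the other mTOR complex, 0.18 ± 0.07, all with groups that did not overlap and limma adjusted p from 0.233 to 0.258. With the GC trend removed these 4 were at -0.11, -0.13, -0.12 and 0.13.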

How the data were processed

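The submitters' processing notes name GRCm38 as the build and list DESeq2 1.14.1, featureCounts 1.5 and STAR 2.5. For the annotation, the strand setting and any filters, nothing was given in the sources used here. Per gene, the authors deposited counts normalized to library size, that is, a signal and not raw counts, with their mean over libraries. The authors' deposited table of SFR KO against wildtype also gives the log2 fold change and its standard error, raw and adjusted p-values, and the test statistic, a score. Values of a library were whole multiples of its smallest, and 100% came out whole within 1e-06, so reads were recovered by division; precision is set by 28269310 to 33053024 reads a library. Libraries of a group differed by a chi-square per gene of at least 6.11 and were used as separate samples.

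Groups followed the genotype in the labels; replicate numbers follow accession order and only name samples. The main test was limma 3.58.1 (R 4.3.3; lmFit, eBayes with a trend, two-sided) on log2(normalized count + 1) with genotype as the factor, for genes averaging at least 10 normalized reads. This scale understates the change of low genes. Fold changes and 95% intervals come from this fit. The 6 genes left out by the minimum held 21 reads in SFR KO and 27 in wildtype libraries. Alternatives were pseudocounts of 0.5 and 5, no filter or a minimum of 50, TMM and total scaling, edgeR 4.0.16 (quasi-likelihood), DESeq2 1.42.0, sample weights, removal of each library's GC trend (a natural spline with 4 degrees of freedom) and leaving out each library; removal of GC and length trends together was added after seeing the data. The procedure was tested on simulated data. Positions, lengths and GC content came from GENCODE M21 on GRCm38, with GC content for 99.8% of tested genes.

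The genes, roles and lists were chosen with earlier results of these data known. The text names the 12 genes with the smallest unadjusted p, the most abundant per kilobase in each role, Eif4ebp1, Eif4ebp2, Eif4ebp3, Eif4e, Eef2k, Eef1a2 and Eif5a2, and the 2 genes with the smallest p in each list; further named genes were chosen after their values were seen. Without a stated strand setting, reads of the 36 genes that another annotated gene overlaps (19 on the opposite strand) cannot be assigned with certainty.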

Additional observations from a re-analysis of the deposited data

How the results depend on the processing

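In all 17 alternatives 0 translation factor genes were called higher and 0 lower, and their median log2 difference stayed within 1 SD (0.0324) of the reported one, from -0.03 without SFR KO 1 to 0.008 without SFR KO 3. The count of all genes called depended more on the processing: 63 as reported, 129 without a filter, 98 at a minimum mean of 50, 30 with edgeR, 491 with DESeq2, 630 with sample weights, 20 with the GC trend removed and 22 with GC and length trends removed. Leaving out 1 library gave 11 (without SFR KO 2) to 480 (without SFR KO 1) called genes, with 21 without SFR KO 3 and 13, 26 and 14 without wildtype 1, 2 and 3. Fits with 1 library left out also had fewer samples, and the cause of these shifts was not tested.

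Of 476 alternative values for the 28 named genes, 444 kept their direction and side of the threshold. Mknk1 and Mknk2 passed it in 3, given beside their values. Another 29, in 11 genes with small differences, changed sign. With the GC trend removed, and with GC and length trends removed, the log2 differences were -0.077 and -0.054 for Eif3e, -0.055 and -0.084 for Eif3m, -0.077 and -0.051 for Eif4e, and 0.034 and 0.047 for Eef2. With both trends removed, Eif3h was at -0.001 and Eif4b at 0.006. With sample weights, Eif3h was at -0.025, Eif4e at -0.016 and Eif5a2 at 0.056. Eef1a1 was at 0.001 with TMM, 0.004 with edgeR and 0.001 with DESeq2. With 1 library left out, the log2 difference ran from -0.037 (without SFR KO 1) to 0.021 for Eef1a1, from -0.055 to 0.011 (without wildtype 2) for Eif2s1, from -0.030 (without SFR KO 1) to 0.040 for Eif3h, from -0.002 (without SFR KO 1) to 0.057 for Eif5a, from -0.095 to 0.028 (without wildtype 1) for Eif5, from -0.021 (without SFR KO 1) to 0.045 for Eif4e and from -0.141 to 0.118 (without SFR KO 1) for Eif5a2. Leaving out 1 library also moved some estimates by over 1.5 times without turning them: Eif1 was at 0.072 without SFR KO 1, Eif4a2 at 0.083 without SFR KO 2, and Eif3a at -0.049 without SFR KO 1 and -0.058 without wildtype 2.

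No paired analysis was possible because the labels give no replicate numbers shared between the groups.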

Other observations

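Within families of paralogues, the share of each member in the family's normalized reads per kilobase was computed for 7 families, chosen after their values were seen and therefore given without a test. Eif4a2 made up 33.2%, 35.7% and 33.4% of Eif4a1 and Eif4a2 together in SFR KO libraries, against 32.8%, 31.5% and 31.3% in wildtype libraries. Eif4g1 made up 27.4%, 29.9% and 29.2% of the eIF4G family in SFR KO libraries, against 31.1%, 31.7% and 31.9% in wildtype libraries. In both families the groups did not overlap, which was also so for 21.7% of all tested genes taken singly. The shares were computed without removal of the GC trend, and the genes of a family differ in GC content. With that trend removed, the log2 differences were 0.03 for Eif4a2 and -0.03 for Eif4a1. Those of Eif4g1, Eif4g2 and Eif4g3 were then -0.13, -0.02 and -0.06. The groups overlapped in the other 5 families: the share of Eif4ebp1 among 4E-binding protein genes was 7.14% ± 2.07 in SFR KO and 8.06% ± 0.81 in wildtype libraries, that of Eif5a2 beside Eif5a 1.44% ± 0.314 and 1.5% ± 0.221, that of Eif1ax beside Eif1a 58.3% ± 0.945 and 56.8% ± 1.43, that of Eif1b beside Eif1 17% ± 0.634 and 17.6% ± 0.337, and that of Eif4e beside Eif4e2 and Eif4e3 31% ± 0.802 and 29.7% ± 1.49 (SD, n = 3 each).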
